A study of Mus musculus with 2 samples.

Results

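Nuclei that carry Egfr transcripts but few or no transcripts of mitosis were described in the subventricular zone (SVZ) of the mouse, a germinal zone beside the lateral ventricle. A nucleus was taken if it had at least 3 Egfr UMIs (unique molecular identifiers, each a captured RNA molecule) and no more than 2 of 12 mitotic genes detected. It also had to have no more than 1 UMI of Pdgfra and Sox10 together, of Rbfox3, and of Csf1r and Inpp5d together, which mark oligodendrocyte precursors, neurons and microglia. Of 28964 nuclei that passed the limits on quality, 808 met the rule, 529 from the control library and 279 from the MIP library. The nuclei were selected on their Egfr UMIs, the mitotic genes and the genes of the other cell types, so their levels are given as a description.

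The series set the SVZ of mice with an early intestinal injury against that of controls. On postnatal day 5 the mice became either controls or MIP mice, with modeled intestinal perforation, and the SVZ was dissected after 48 h, on postnatal day 7, snap frozen, and used for single-nucleus RNA sequencing. Each group was 1 library. The sources used here do not name the strain, the sex or the number of animals in a library, and no genetic change or other agent is named for either group. Because there was 1 library per group, no difference between MIP and control has a replicate check and no test was made. The 95% intervals given below cover counting error only.

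The libraries held 146730970 UMIs in 16964 control barcodes and 100823376 UMIs in 12366 MIP barcodes. After filtering, the median depth per nucleus was 6206.5 UMIs for the control and 6488.5 for the MIP library. Under 2000 UMIs were found in 22.1% of the kept control and 10.1% of the kept MIP barcodes. The Egfr nuclei had median depths of 5796 and 4762 UMIs, and 2 control and 8 MIP Egfr nuclei had under 2000. Xist, the RNA that coats the silent X chromosome of females, was found in 99.6% of the control and 0.358% of the MIP Egfr nuclei, and Y-linked genes were found in 94.3% of the MIP Egfr nuclei. Sex and treatment therefore cannot be told apart. The libraries shared 115 barcode sequences, and none of these was an Egfr nucleus of this kind in both.

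EGFR is the receptor tyrosine kinase for epidermal growth factor and its relatives, and it signals through the RAS and MAP kinase cascade and through PI3 kinase. In the SVZ its RNA and protein are known to appear when astroglia-like stem cells leave quiescence and to stay high in the rapidly dividing transit amplifying cells that descend from them. Neuroblasts, the next stage, lose the receptor as they gain Dcx and the Dlx genes. Astrocytes of the young brain also carry Egfr, so the receptor alone does not separate stem cells, progenitors and astrocytes.

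The nuclei were mostly astroglial by their RNA. Slc1a3, the glutamate transporter GLAST of radial glia and astrocytes, was detected in 92.4% of the control and 85.3% of the MIP nuclei. The 25 genes fixed as a list for astroglia and quiescent stem cells summed to 13050 CPM (UMIs scaled to a common total) in the control and 11740 CPM in the MIP nuclei. Over all nuclei the same genes summed to 2247 and 2093 CPM. The 25 genes fixed for transit amplifying and activated stem cells summed to 1569 and 1267 CPM, against 683 and 473 CPM over all nuclei. By these markers the working name of Egfr progenitors does not describe most of the nuclei, and they are called Egfr nuclei without mitotic transcripts below.

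Egfr itself was at 953 CPM in the control and 1016 CPM in the MIP nuclei. Most nuclei had 3 to 5 Egfr UMIs. In the control library 158 nuclei had 3 Egfr UMIs, 104 had 4, 60 had 5 and 207 had at least 6, with a maximum of 38. In the MIP library 92 nuclei had 3, 49 had 4, 44 had 5 and 94 had at least 6, with a maximum of 25. Just outside the limit, 214 control and 192 MIP nuclei with 2 Egfr UMIs met every other condition. At the other limit, 370 control and 208 MIP nuclei had 0 of the 12 mitotic genes, 126 and 60 had 1, and 33 and 11 had 2. Only 17 and 6 nuclei with 3 mitotic genes fell just outside.

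Egfr UMIs were also found in neurons, which were measured as a comparison for stray RNA. Among neurons with at least 5 Rbfox3 UMIs, at least 3 Egfr UMIs were found in 5.80% of 2810 control and 3.74% of 2352 MIP nuclei, at median depths of 17621.5 and 14316.5 UMIs. As a level this was 28.2 and 20.1 CPM of Egfr, far under the level in the chosen nuclei. The UMIs were not spread evenly, since 163 of the 353 control neurons with an Egfr UMI had at least 3, and whether they are stray RNA was not tested. Of all 1090 control and 532 MIP nuclei with at least 3 Egfr UMIs, 48.5% and 52.4% were kept. Of those left out, 331 and 169 were over the Rbfox3 limit, 235 and 73 over the mitotic limit, and 102 and 34 over the limit for Pdgfra and Sox10.

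Egfr nuclei without mitotic transcripts made up 3.14% (2.88 to 3.41) of the control and 2.30% (2.04 to 2.59) of the MIP nuclei, a log2 ratio of -0.45 (-0.66 to -0.23). Egfr nuclei with at least 3 mitotic genes, the dividing counterpart, were 0.861% and 0.404% of the nuclei, a log2 ratio of -1.09 (-1.59 to -0.61). Among all Egfr nuclei inside the other limits, the dividing ones were 21.5% of 674 control and 14.9% of 328 MIP nuclei. Astroglia with 0 Egfr UMIs went the other way, at 1.42% and 2.47% (0.79, 0.54 to 1.04). These astroglia are parted from the Egfr nuclei by Egfr UMIs, so a lower Egfr level or depth moves nuclei into this group. Its direction is therefore not independent of that of the Egfr nuclei. Neuroblasts with 0 Egfr UMIs were 1.55% and 1.34%, and their interval spanned 0 (-0.21, -0.50 to 0.08). Whether these ratios differ from each other beyond the variation between animals was not tested.

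Fewer nuclei over the Egfr limit can reflect fewer such cells or less Egfr RNA per cell, and these cannot be told apart from the shares. When astroglia were taken at any Egfr level, Egfr was at 460 CPM in 911 control and 331 CPM in 797 MIP nuclei, a log2 ratio of -0.47 (-0.57 to -0.37). Their median depths were 5377 and 4112 UMIs. At least 3 Egfr UMIs were found in 37.8% and 18.1% of these astroglia. At an equal 2000 UMIs per nucleus, at least 1 Egfr UMI was found in 48.3% and 42.3%, with an interval that spanned 0 (-0.19, -0.40 to 0.02). At least 2 were found in 20.4% and 14.4% (-0.51, -0.86 to -0.16). In the Rbfox3 neurons Egfr also had a log2 ratio of -0.49 (-0.61 to -0.36), at the far lower levels given above. At 2000 UMIs, at least 1 Egfr UMI was found in 3.17% and 2.55% of these neurons (-0.31, -0.81 to 0.18).

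The nuclei were not of a single kind. They were clustered after the data had been seen, on the variable genes of both libraries, and fell into 10 clusters. The genes that lead a cluster were used to form it, so they and the cluster sizes are descriptions. They are told apart by their leading genes, and the plot of cluster shares gives their sizes.

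**Figure D1:**
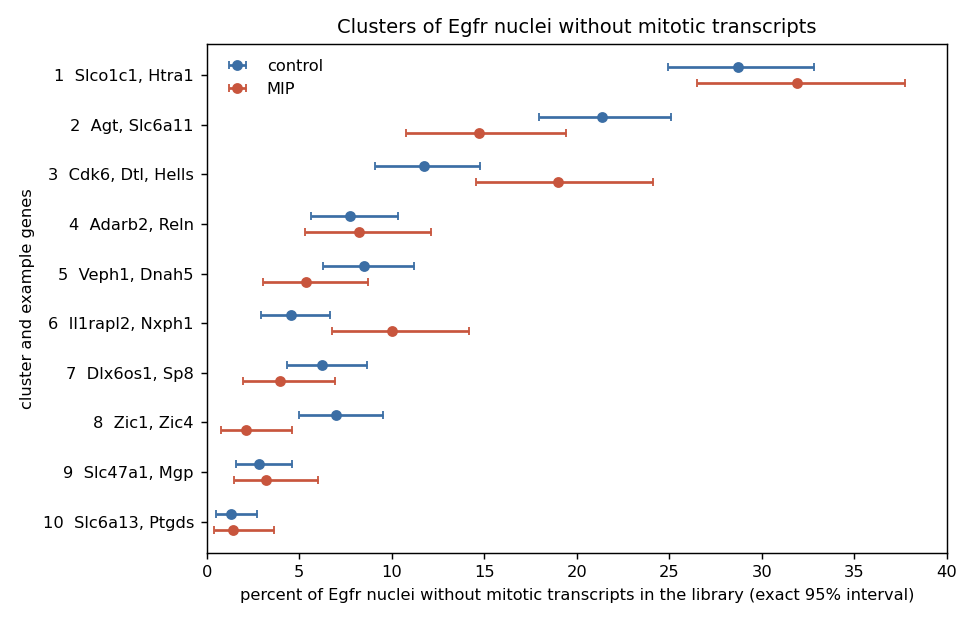
Share of the Egfr nuclei without mitotic transcripts in each of 10 clusters, as percent of those nuclei in the control (529) and MIP (279) libraries, with exact 95% intervals that cover counting error only. Cluster 3, led by S phase genes, held 11.7% and 19.0%, and cluster 8, led by Zic genes, held 6.99% and 2.15%.

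The astroglia-like clusters were 1, 2, 5 and 8, with 347 control and 151 MIP nuclei, or 65.6% and 54.1%. Their astroglial list genes summed to 19312, 18823, 14061 and 21457 CPM. Cluster 1 was led by Slco1c1, a thyroid hormone transporter, Htra1, a secreted protease, and Slc1a2, the glutamate transporter GLT-1. Cluster 2 was led by Agt, angiotensinogen, and Slc6a11, a GABA transporter, both known from astrocytes of ventral and caudal brain regions. Cluster 5 was led by Veph1 and by cilium genes such as Dnah5, Cfap54 and Spef2, and its ependymal list genes stood at 379 CPM against 36.3 CPM in the other nuclei. Cluster 8 was led by the transcription factors Zic1 and Zic4. Together these clusters were 2.06% (1.85 to 2.29) of all control and 1.25% (1.06 to 1.46) of all MIP nuclei. Egfr in them was at 886 and 946 CPM.

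Cluster 3 had 62 control and 53 MIP nuclei and the highest Egfr level, 2794 and 2354 CPM. Its median nucleus had 9.5 and 7 Egfr UMIs at median depths of 4148.5 and 3012 UMIs. It was led by Rad51b and Rmi2, which act in recombination repair, Cdk6, the kinase that drives cells out of G1, and Dtl, E2f1, Timeless and Hells, which are expressed around DNA replication. It held 11.7% (9.10 to 14.8) of the control and 19.0% (14.6 to 24.1) of the MIP nuclei. As a share of all nuclei it was 0.368% (0.282 to 0.471) and 0.438% (0.328 to 0.572). The clusters that were neither astroglia-like nor cluster 3 held 0.712% and 0.619% of all nuclei.

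Clusters 4, 6 and 7 carried neuronal genes. Cluster 4, led by Zfp804a, Adarb2 and Reln, had 41 control and 23 MIP nuclei at high median depths of 11374 and 8268 UMIs, and 25 and 8 of them were among the barcodes with the highest doublet scores. Cluster 6, led by Il1rapl2, St18 and Nxph1, had 24 and 28 nuclei, and its interneuron list genes stood at 8007 CPM against 1443 in the other nuclei. Most of that sum was Nxph1 itself, with 3383 UMIs. The oligodendrocyte precursor list stood at 6808 CPM against 2034 in the other nuclei, and the neuroblast list at 16156 against 8507. Cluster 7, led by Dlx6os1 and Sp8, carried both neuroblast and astroglial genes. All 22 genes of the neuroblast list and 20 of 25 of the astroglial list were detected in at least 20% of its nuclei. Its astroglial list genes stood at 11404 CPM against 12760 in the other nuclei. Cluster 7 had 33 and 11 nuclei, of which 10 and 4 had high doublet scores. Clusters 9 and 10 were small, with 15 and 9 and with 7 and 4 nuclei. Cluster 9 was led by Slc47a1, Mgp and Bnc2, and cluster 10 by Slc6a13, Ptgds and Aldh1a2, genes of the leptomeninges. No doublet was removed from the values given here.

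**Figure D2:**
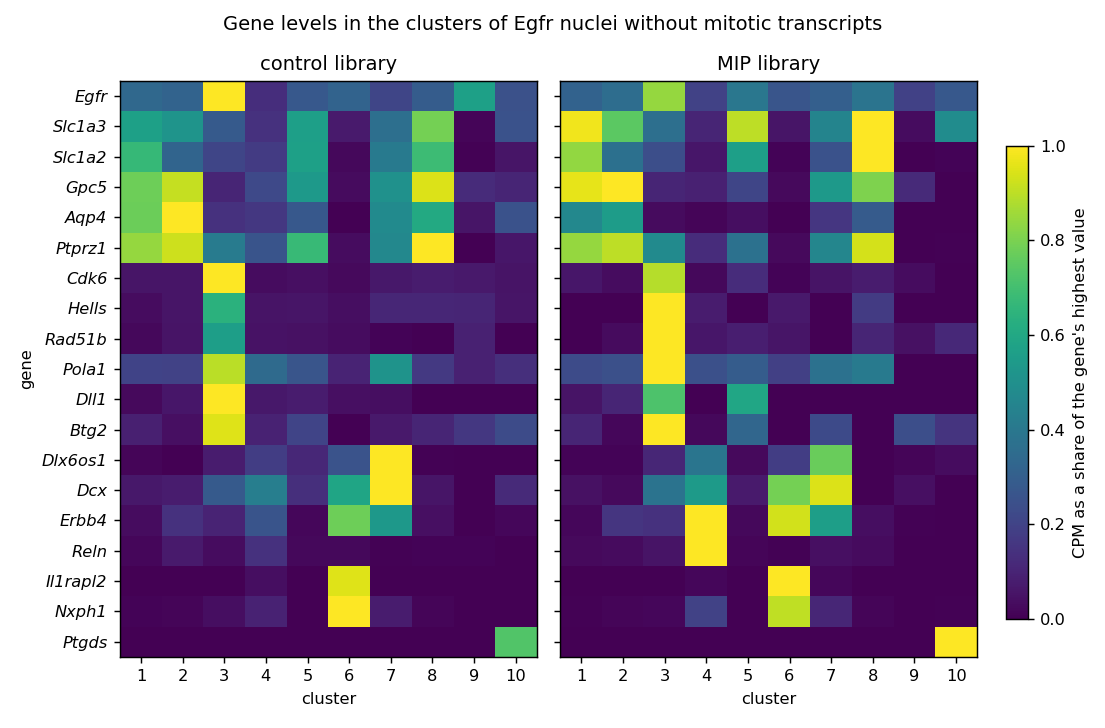
Level of 19 genes in the 10 clusters, each as CPM divided by the gene's highest value over both libraries (colour, from 0 to 1), with the control library left and the MIP library right. Egfr, Cdk6, Hells and Rad51b are brightest in cluster 3, the glutamate transporters in clusters 1, 5 and 8, and Dlx6os1 and Dcx in cluster 7.

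The Dlx genes, whose transcription factors direct GABAergic neurons, marked a part of the nuclei that the rule did not choose for. At least 3 UMIs of Dlx1, Dlx2, Dlx5, Dlx6 and Dlx6os1 together, without Olig1 and Olig2 at that level, were found in 14.0% of the control and 13.3% of the MIP nuclei. Thinned to 2000 UMIs per nucleus the shares were 7.97% and 8.86%. In this Dlx state Gad2, an enzyme that makes GABA, was detected in 87.8% and 89.2% of nuclei and Dcx in 87.8% and 75.7%. Slc1a3 was still detected in 81.1% and 56.8% of them. Only 8 control and 1 MIP nuclei were in the Olig state, and 84.3% and 86.0% had neither.

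Against Egfr nuclei with mitotic transcripts, the chosen nuclei had more astroglial RNA and less RNA of proliferation. Each library was compared on its own, and a gene was counted if it was at least 2-fold higher or lower in both. Of 10215 genes, 407 (3.98%) were higher and 535 (5.24%) lower. Of the astroglial list, 13 of 23 measured genes were higher and 0 lower. Gpc5, a glypican of astrocytes, was at 3466 CPM against 1096 CPM in the control library (log2 1.66) and had a log2 ratio of 1.79 in the MIP library. Aqp4, the water channel of astrocyte endfeet, had ratios of 1.80 and 2.21, and Slc1a2 of 1.32 and 1.15.

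The mitotic genes of the rule were lower by construction, and so were genes that move with them. Outside the rule, 47 of 48 measured genes of G2 and M phase were lower, among them Ccnb1, the mitotic cyclin, with log2 ratios of -5.55 (control) and -5.87 (MIP). Neil3, a DNA glycosylase of S and G2 phase, had ratios of -6.66 and -6.95. Of the S phase list, 37 of 40 genes were lower. Atad2, a chromatin factor of replication, had ratios of -3.40 and -3.02, and Pola1, the catalytic subunit of DNA polymerase alpha, of -2.29 and -2.42. Of the transit amplifying list 8 of 20 were lower and 0 higher, with Dlx1 at -2.54 and -3.26, and Hes6, a Notch pathway regulator of neurogenesis, at -2.25 and -1.78.

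Within the chosen nuclei, cluster 3 was lower than the dividing Egfr nuclei by less in genes of S phase than in genes of mitosis. Cluster 3 was set apart for having the most RNA of the S phase list, and the rule kept mitotic genes low. Both sides of this contrast therefore follow in part from how the nuclei were chosen, and are given as a description. Of 5420 genes, 26 (0.48%) were at least 2-fold higher in cluster 3 than in Egfr nuclei with mitotic transcripts in both libraries and 194 (3.58%) were lower. Among 46 measured G2 and M genes outside the rule, 44 were lower, with Neil3 at 6 control and 3 MIP UMIs, log2 ratios of -3.84 and -4.38. Among 35 measured S phase genes 4 were lower and 0 higher, with median ratios of -0.53 and -0.42. The S phase list summed to 3431 and 4078 CPM in cluster 3 against 5003 and 5495 CPM in the dividing nuclei. Single genes lay on both sides of the medians, with Pola1 at -0.66 and -0.80, Hells, a chromatin remodeller, at -0.09 and 0.87, and Mcm6, a subunit of the replicative helicase, at 0.41 and 0.37. Cdk6 had ratios of 0.29 and 0.54, and the transit amplifying list summed to 3003 and 2872 CPM in cluster 3 against 2944 and 2902 CPM in the dividing nuclei.

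Some genes were higher in cluster 3 than in the dividing nuclei. Btg2, an antiproliferative gene of neurogenic divisions, was at 242 CPM in the control and 254 CPM in the MIP cluster, with ratios of 1.61 and 1.64. Dll1, the Notch ligand of committed progenitors, had ratios of 1.09 and 2.28, and Dscaml1, a cell adhesion molecule, of 1.39 in each library. Egfr, a gene of the rule, was at 2794 against 1343 CPM in the control library and 2354 against 1300 CPM in the MIP library. Dlx1 was lower in cluster 3, with ratios of -1.22 and -1.49, and Dlx6os1 with -2.02 and -1.03.

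**Figure D3:**
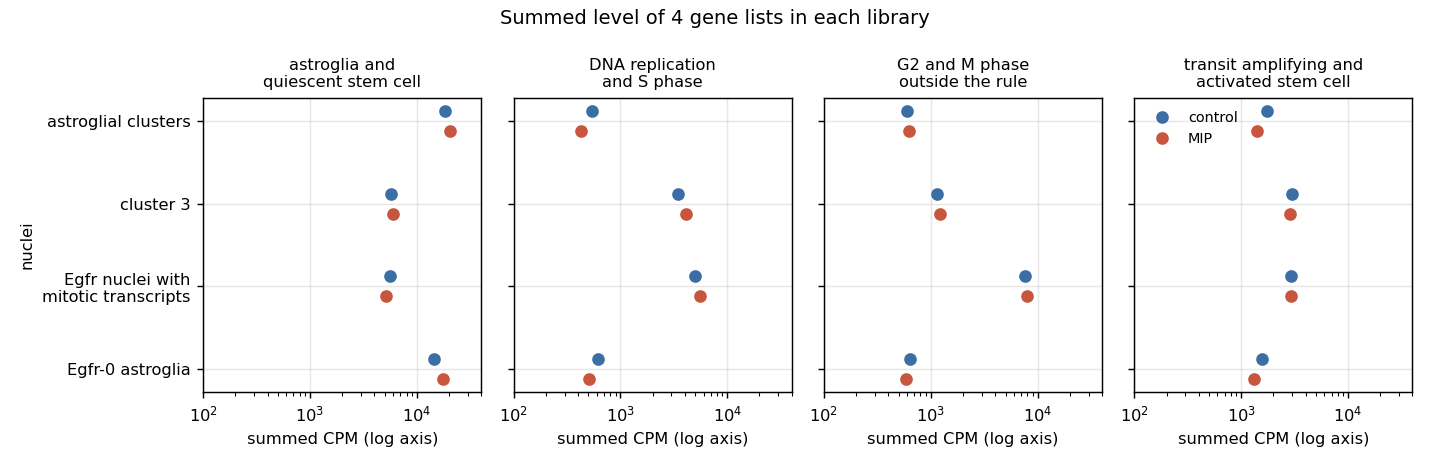
Summed CPM (log axis) of 4 gene lists in the astroglia-like clusters, in cluster 3, in Egfr nuclei with mitotic transcripts and in astroglia with 0 Egfr UMIs, with 1 point per library. Cluster 3 lies near the mitotic nuclei for transit amplifying genes and under them for S phase genes (3431 and 4078 against 5003 and 5495 CPM), and the astroglia-like clusters lie near the Egfr-0 astroglia in all 4 lists. Cluster 3 was set apart by the S phase list and the astroglia-like clusters by the astroglial list, so their places in those lists are descriptions.

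Cluster 3 and the astroglia-like clusters were formed from the same genes, so the values between them describe the split. Of 7353 genes, 533 (7.25%) were higher and 413 (5.62%) lower in cluster 3 in both libraries. Dll1 had log2 ratios of 4.61 and 2.63, and Dll3, a Notch ligand that acts within the cell, of 4.50 and 4.73. Mfng, a glycosyltransferase that modifies Notch, had 9 and 5 UMIs in cluster 3 and 0 in the astroglia-like clusters of either library. Sox4 had ratios of 1.83 and 2.79, Sox11 of 1.77 and 2.21, and Olig2 of 2.19 and 1.55. Gfap, the intermediate filament of astrocytes, had 1 UMI in the control and 0 in the MIP cluster 3, against 292 and 72 UMIs in the astroglia-like clusters. Slc1a3 was lower by less, with ratios of -1.02 and -1.31, and was detected in 87.1% and 84.9% of the nuclei of cluster 3.

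The astroglia-like nuclei with Egfr were close to astroglia with 0 Egfr UMIs. Both groups were chosen by astroglial genes, the clusters by the astroglial list and the Egfr-0 astroglia by Slc1a3 and Slc4a4 of that list. Likeness in astroglial genes follows in part from this choice. Of 10155 genes, only 6 (0.0591%) were at least 2-fold higher in both libraries, and 237 (2.33%) were lower. Egfros, a transcript antisense to Egfr (mm10 chromosome 11, 16815431 to 16830702, inside the Egfr gene at 16752203 to 16918158 on the other strand), was at 119 against 18.6 CPM in the control library and 68.3 against 15.5 CPM in the MIP library. Because the sources used here do not say whether counting used strand, its reads cannot be told apart from those of Egfr, which the rule used. Smaller differences were seen for Slc9a9, a sodium and proton exchanger, with ratios of 0.80 and 0.88, Vav3, a guanine nucleotide exchange factor, with 0.89 and 0.92, and Ptprz1, a receptor phosphatase of glial progenitors, with 0.70 and 0.53. None of 34 measured genes of EGF receptor signalling and feedback passed 2-fold in both libraries. Etv4, a transcription factor induced by that cascade, had ratios of 0.80 and 0.44, and Lrig1, a membrane protein that lowers receptor levels, of 0.54 and 0.21.

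Among the genes lower in the Egfr astroglia than in the Egfr-0 astroglia, Bmp6, a bone morphogenetic protein, had 7 against 55 UMIs in the control and 4 against 79 in the MIP library, ratios of -3.65 and -3.46. Of the ependymal list 5 of 7 measured genes were lower, and 6 of 7 when all chosen nuclei were used. Nrg1, a neuregulin that binds other members of the receptor family, had ratios of -1.25 and -0.71. Of the astroglial list, which was used to choose the clusters, 0 of 24 genes were higher and 1 lower. The Egfr astroglia had been parted from clusters with neuronal and leptomeningeal genes, and the Egfr-0 astroglia had no such step. The leptomeningeal list summed to 19.4 against 87.0 CPM in the control and 26.5 against 211 CPM in the MIP library. Adarb2 and Dlx6os1, which led clusters with neuronal genes, also ranked among the lowest genes. The part of other cells in the lower genes, Bmp6 included, was not tested.

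When all the chosen nuclei were set against Egfr-0 astroglia, 203 (1.77%) of 11441 genes were higher and 104 (0.909%) lower. The leading genes were those of the small clusters, such as Il1rapl2, of the interleukin 1 receptor family, with ratios of 5.07 and 4.43, Nxph1, a secreted ligand of neurexins, with 3.35 and 4.03, and Bnc2 with 3.27 and 2.66. Cdk6 had ratios of 1.30 and 1.72. Against neuroblasts with 0 Egfr UMIs, 1040 (9.63%) of 10794 genes were higher and 521 (4.83%) lower. Mertk, the phagocytic receptor of astrocytes, had ratios of 6.83 and 6.60, Slc1a2 of 4.53 and 4.56, Sp8, a transcription factor of olfactory interneurons, of -2.64 and -4.04, and Igfbpl1, a neuroblast gene, of -2.31 and -2.65.

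Between the libraries, the summed RNA of all chosen nuclei was compared with ratios of MIP to control. Of 13347 genes with at least 20 UMIs, 1116 (8.36%) were at least 1.5-fold higher in the MIP nuclei and 2010 (15.1%) lower. The median over all these genes was -0.04 on the log2 scale. In the astroglia-like clusters, 1044 (9.29%) of 11243 genes passed 1.5-fold upward and 2036 (18.1%) downward (median -0.07). In cluster 3, 768 (13.9%) of 5541 were higher and 990 (17.9%) lower (median -0.02). In the comparison groups, 8.74% of genes were higher and 16.8% lower in Egfr-0 astroglia, 11.6% and 20.8% in Egfr nuclei with mitotic transcripts, and 8.65% and 18.3% in neuroblasts. Because the mix of clusters differed between libraries, the values within these clusters are given beside those of all nuclei. The mix inside the astroglia-like clusters still differed. Clusters 1, 2, 5 and 8 had 152, 113, 45 and 37 control nuclei and 89, 41, 15 and 6 MIP nuclei. The part of this mix in the ratios was not tested.

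**Figure D4:**
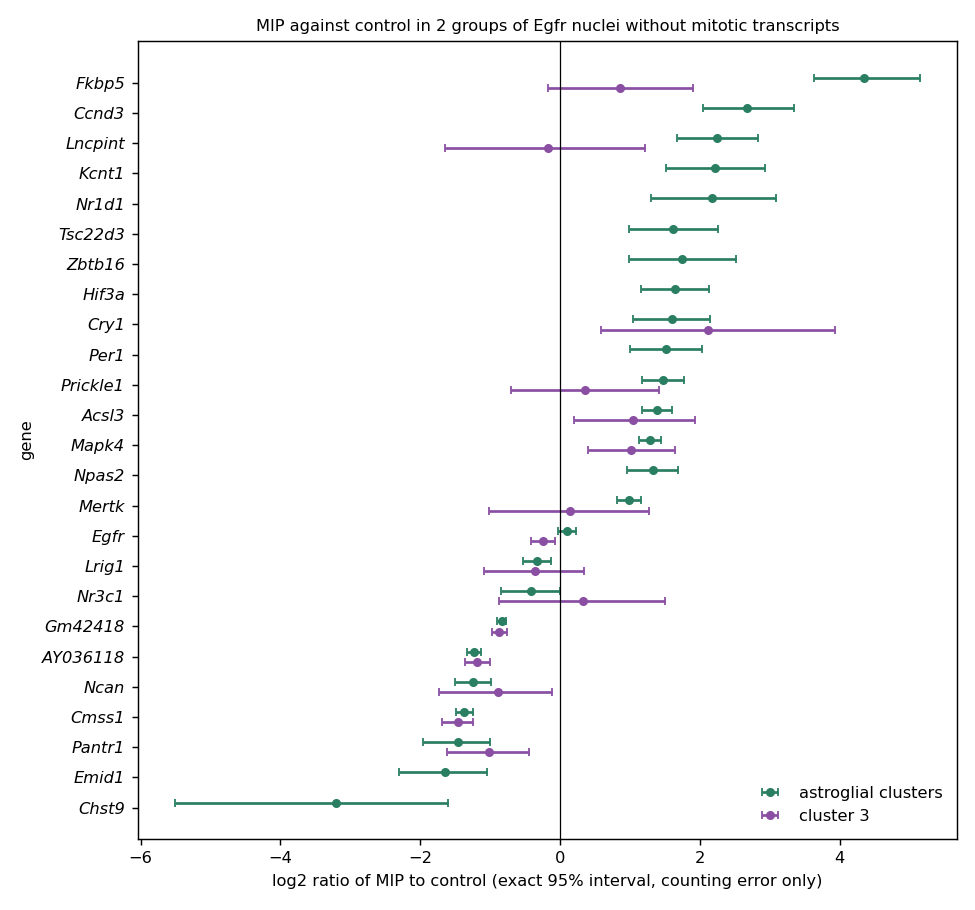
Log2 ratio of MIP to control (points) with exact 95% intervals that cover counting error only, for 25 genes in the astroglia-like clusters (green) and in cluster 3 (purple). A gene with too few UMIs in cluster 3 has no purple point. Fkbp5 is highest in the astroglia-like clusters at 4.35 and Chst9 lowest at -3.20.

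Among the genes ranked, Fkbp5, a co-chaperone of steroid receptors that glucocorticoids induce, had the ratio farthest above 0 after its counting error. Mitochondrial, ribosomal protein, haemoglobin and main sex-linked genes were left out of this ranking. Fkbp5 lies on mm10 chromosome 17 at 28399094 to 28517527. Its UMIs numbered 175 in control and 379 in MIP nuclei, or 49.3 and 253 CPM, and was detected in 15.3% and 46.2% of nuclei. The log2 ratio was 2.36 (2.10 to 2.63). In the astroglia-like clusters it had 18 and 128 UMIs, 8.75 and 178 CPM, a ratio of 4.35 (3.63 to 5.15). In cluster 3 it had 16 and 20 UMIs, 58.6 and 106 CPM, and the interval spanned 0 (0.85, -0.17 to 1.90). Outside the chosen nuclei the ratio was 3.39 in Egfr-0 astroglia, 1.09 in Egfr nuclei with mitotic transcripts and 0.71 in neuroblasts. Across the 10 clusters Fkbp5 ranged from 4.66 to 579 CPM in the control and from 106 to 1808 CPM in the MIP library, and it was highest in cluster 9 in both.

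Ccnd3, cyclin D3, followed, with 50 and 101 UMIs, 14.1 and 67.4 CPM, a ratio of 2.26 (1.76 to 2.78). In the astroglia-like clusters it had 30 and 67 UMIs (2.68, 2.04 to 3.35), and in cluster 3 there were 6 and 8. Its ratio was 1.29 in Egfr-0 astroglia and -0.73 in neuroblasts. Lncpint, a long noncoding RNA of the p53 response, had a ratio of 2.24 (1.68 to 2.82) in the astroglia-like clusters, from 20.9 to 98.9 CPM, and -0.17 in cluster 3. Acsl3, a fatty acid activating enzyme, was at 185 and 481 CPM in the astroglia-like clusters (1.38, 1.17 to 1.59) and had a ratio of 1.04 (0.19 to 1.92) in cluster 3. Mapk4, an atypical MAP kinase, was at 347 and 844 CPM there (1.28, 1.13 to 1.44) and had 1.02 (0.40 to 1.64) in cluster 3. Prickle1, a planar polarity gene, was at 91.4 and 254 CPM (1.47, 1.17 to 1.77), with 0.36 in cluster 3. Hif3a, a gene of the hypoxia pathway, was at 34.5 and 107 CPM (1.64, 1.15 to 2.12).

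Several genes that led the list over all nuclei came from the small clusters. Reln, the secreted protein reelin, had a ratio of 1.78 over all nuclei but -0.39 (-1.16 to 0.32) in the astroglia-like clusters. In cluster 4 it had 77 UMIs in 41 control and 217 UMIs in 23 MIP nuclei. Ror1, a Wnt receptor, had 1.48 over all nuclei and -0.17 in the astroglia-like clusters. Cdh1, an epithelial cadherin, had 20 and 43 UMIs, all in cluster 9. Col19a1 had 109 and 154 UMIs in all and 2 and 1 in the astroglia-like clusters.

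Among the genes lower in the MIP nuclei was Ncan, neurocan, a chondroitin sulfate proteoglycan of the matrix. It had 1259 and 201 UMIs, 355 and 134 CPM, and was detected in 75.4% and 41.2% of nuclei (-1.40, -1.62 to -1.19). In the astroglia-like clusters it was at 480 and 202 CPM (log2 -1.25), and in cluster 3 its ratio was -0.89 (-1.74 to -0.11). The ratio was also under 0 in Egfr-0 astroglia (-0.76), in Egfr nuclei with mitotic transcripts (-1.89) and in neuroblasts (-0.41). Tnc, tenascin C, another matrix protein of the SVZ, was at 801 and 543 CPM in the astroglia-like clusters (-0.56, -0.72 to -0.40), short of the 1.5-fold limit. It was named after its values were seen. Emid1, a secreted protein with a collagen domain, was at 109 and 34.8 CPM (-1.64, -2.30 to -1.05).

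Chst9, a sulfotransferase that acts on sugar chains, had 79 control and 3 MIP UMIs in the astroglia-like clusters, 38.4 and 4.18 CPM, a ratio of -3.20 (-5.51 to -1.60). It was detected in 14.1% and 1.99% of these nuclei. In Egfr-0 astroglia its ratio was 0.23 (-0.77 to 1.26). The difference between those ratios was not tested. Aqp4 was at 279 and 160 CPM in the astroglia-like clusters (-0.80, -1.10 to -0.51) and had a ratio of -0.04 in Egfr-0 astroglia, and Fabp7, the brain fatty acid binding protein of radial glia, was at 764 and 414 CPM (-0.89, -1.07 to -0.71). Both were chosen after their values were seen.

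Some of the lowest ratios were alike in every group of nuclei. Cmss1 had -1.37 in the chosen nuclei, -1.41 in Egfr-0 astroglia, -1.13 in Egfr nuclei with mitotic transcripts and -1.56 in neuroblasts. AY036118 had -1.23, -1.40, -1.38 and -1.34 in the same order, and Gm42418 had -0.86, -0.93, -0.99 and -0.96. The latter pair overlap on chromosome 17 (39847113 to 39848035 and 39846958 to 39848788, on opposite strands) at a locus known to hold ribosomal RNA sequence. Gm26917, a neighbour at 39843013 to 39846341, was higher in the MIP nuclei, with 167 and 474 CPM in the astroglia-like clusters (1.51, 1.29 to 1.73) and a ratio of 1.37 in Egfr-0 astroglia.

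Of 21 measured genes that glucocorticoids induce, 9 were at least 1.5-fold higher in the MIP astroglia-like nuclei and 1 lower, where 9.29% of all genes were higher. Their median was 0.49 against -0.07 for all genes. Beside Fkbp5, Tsc22d3, which encodes the anti-inflammatory protein GILZ, had a ratio of 1.62 (0.98 to 2.26) and is X-linked, so that the sex of the libraries bears on it. Zbtb16, a transcription factor, had 29 and 34 UMIs (1.75, 0.99 to 2.52), and Cebpd, a transcription factor of the acute phase response, had 7 and 13 (2.41, 0.98 to 3.98). Per1, a clock gene with a glucocorticoid response element, had 66 and 66 UMIs, 32.1 and 91.9 CPM, a ratio of 1.52. Mertk had 0.98 (0.82 to 1.15) and 1.16 in Egfr-0 astroglia. Nr3c1, the glucocorticoid receptor, had -0.42 (-0.85 to -0.01). Over all chosen nuclei 11 of 25 genes of the list were higher and 0 lower, against 8.36% and 15.1% of all genes. In cluster 3 only 6 could be measured, of which 1 was higher and 2 lower.

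Of 20 measured clock genes, 13 were higher and 1 lower in the astroglia-like clusters (median 0.85), where 9.29% of all genes were higher and 18.1% lower. Nr1d1, the repressor REV-ERB alpha, had 2.18 (1.30 to 3.09), Cry1, a repressor of the clock, 1.59 (1.04 to 2.15), Npas2, an activator, 1.32 (0.95 to 1.69), and Bhlhe41 1.23. The core activators Arntl and Clock had -0.04 and 0.39, and Per3 had 0.01. In cluster 3, 1 of 9 measured clock genes was higher and 0 lower (median 0.08), and the list's summed ratio of 0.07 (-0.09 to 0.23) spanned 0. The higher gene there was Cry1, with 5 and 15 UMIs (2.12, 0.58 to 3.93). The sources used here do not give the hour at which tissue was taken, so time of day and treatment cannot be told apart.

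Of 11 measured genes of the acute phase and STAT3 list, 7 were higher and 1 lower in the astroglia-like clusters (median 0.75), again against 9.29% and 18.1% of all genes. Il6st, the shared receptor subunit gp130, had 1.05 (0.61 to 1.47), Pim3, a kinase, 1.69, and Stat3 0.49. Lcn2, a lipocalin induced strongly in reactive astrocytes, had 0 UMIs in both libraries, and Socs3, the feedback inhibitor, had 7 and 11 over all chosen nuclei. Of 8 measured interferon genes 0 were higher and 3 lower, counts too small to set apart from those shares. Of 8 measured immediate early genes 1 was higher and 5 lower, while over all chosen nuclei 8 of 17 were higher and 2 lower, where 8.36% and 15.1% of all genes were.

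In the astroglia-like clusters, 2 of 23 measured S phase genes were higher and 10 lower, against 9.29% and 18.1% of all genes. The list summed to 547 CPM in the control and 429 CPM in the MIP library (-0.35, -0.54 to -0.17). Nasp, a histone chaperone, had -0.57 (-1.13 to -0.04). In cluster 3, 8 of 28 were higher and 2 lower, against 13.9% and 17.9% of all genes, and the list summed to 3431 and 4078 CPM (0.25, 0.11 to 0.39). There Rad51b had 51 and 63 UMIs (0.84, 0.28 to 1.40) and Hells 35 and 38 (0.65). Cdk6 was at 447 and 397 CPM and Ccnd2, the cyclin D of neural progenitors, at 513 and 439 CPM, both with intervals that spanned 0. The difference between the clusters was not tested. Over all chosen nuclei 10 of 46 were higher and 1 lower, against 8.36% and 15.1% of all genes. Cluster 3 held a larger share of the MIP nuclei, and its part in that count was not tested.

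Of the EGF receptor pathway, 36 genes of signalling and feedback could be measured in the astroglia-like clusters. Of these 4 were higher and 1 lower (median 0.12), where 9.29% and 18.1% of all genes were. Sos2, an exchange factor that loads RAS, had 0.89 (0.53 to 1.25), Pik3r1, a regulatory subunit of PI3 kinase, 0.81 (0.57 to 1.05), and Gab2, an adaptor, 0.62 (0.33 to 0.90). Lrig1 had -0.33 (-0.53 to -0.13), Spry2, a feedback inhibitor, -0.29, and Etv4 -0.18. In cluster 3, 5 of 30 were higher and 2 lower (median -0.03), near the 13.9% of all genes that were higher there, with Pik3r1 at 172 and 423 CPM (1.30, 0.76 to 1.85), Braf at 1.04 (0.45 to 1.65) and Gab1 at 1.02 (0.34 to 1.72). Etv4, with 21 and 9 UMIs, was among the genes lower there at -0.69, with an interval that spanned 0. Egfr had -0.25 (-0.42 to -0.08) in cluster 3.

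Among the receptors and ligands, 0 of 9 measured genes were higher and 1 lower in the astroglia-like clusters, where 9.29% and 18.1% of all genes were. Nrg1 was at 1561 and 1841 CPM (0.24, 0.14 to 0.33), and Erbb4, a neuregulin receptor, had -0.22 (-0.38 to -0.07). Over all chosen nuclei Erbb4 had 0.90, and its level was highest in clusters 6 and 7 of the control and 4 and 6 of the MIP library. Tgfa, a ligand of EGFR made in the SVZ, had 71 and 15 UMIs (-0.72, -1.63 to 0.09). Egf itself had 18 and 5 UMIs, and its interval spanned 0 (-0.33, -2.11 to 1.15). Erbb2 had 15 and 6, and Erbb3 0 and 2.

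Of the Notch pathway, 3 of 20 measured genes were higher and 3 lower in the astroglia-like clusters, near the 9.29% and 18.1% of all genes. The same shares apply to the other lists of these clusters. Hes1, a repressor that Notch induces, was at 50.5 and 111 CPM (1.14, 0.70 to 1.57), while Hes5, another such target, was at 203 and 191 CPM (-0.09, -0.38 to 0.20). Notch1 was at 133 and 132 CPM. Of the astroglial list 1 of 24 was higher and 3 lower. Slc1a3 was at 2668 and 4195 CPM (0.65, 0.59 to 0.72), and its ratio in Egfr-0 astroglia was 0.61. Of the transit amplifying list 0 of 17 were higher and 4 lower. Its sum fell from 1731 CPM in the control to 1390 CPM in the MIP library. The middle gene of this list was not lower, at 0.07, where that of all genes was at -0.07. The lower sum therefore does not describe most genes of the list. The 25 genes of cholesterol and fatty acid synthesis were 2 higher and 3 lower.

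Markers of other cells were measured beside these results, and their part in them was not tested. Over all chosen nuclei 8.36% of all genes were higher and 15.1% lower, and in the astroglia-like clusters 9.29% and 18.1%. Over all chosen nuclei the microglial list summed to 150 CPM in the control and 108 CPM in the MIP library, with 2 of 7 measured genes higher and 3 lower, and 0 of 2 erythroid genes were higher and 1 lower. In the astroglia-like clusters the ependymal list summed to 44.7 and 134 CPM (1.58, 1.15 to 2.01) with 2 of 2 measured genes higher, and the erythroid list to 47.1 and 9.75 CPM (-2.27) with 2 of 2 lower. Interneuron genes were 4 higher and 1 lower of 9 over all chosen nuclei, and 0 and 1 of 5 in the astroglia-like clusters. Oligodendrocyte precursor genes were 1 higher and 8 lower of 14 there, with a median of -0.68. The sum of that list was alike, at 1909 and 1919 CPM (0.01, -0.08 to 0.10). Barcodes with high doublet scores were 15 of the control and 1 of the MIP nuclei in the astroglia-like clusters, and 5 and 0 in cluster 3.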

How the data were processed

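Nuclei of snap-frozen SVZ were counted in 1 control and 1 MIP library. The authors deposited unnormalized UMI counts of 32285 genes, for which the submitters' processing notes name Cell Ranger 5.0.1 and mm10. Barcodes with at least 500 genes and no more than 5% mitochondrial UMIs were kept (16850 control, 12114 MIP). The rule for the nuclei, the gene lists and the comparisons were chosen with earlier results of these data known.

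Within each library the UMIs of a group's nuclei were added up and divided by the group's total (CPM). Ratios have the exact conditional interval of a ratio of 2 Poisson counts, and shares have Clopper-Pearson intervals. Genes needed at least 20 UMIs over both groups compared. Comparison groups kept the same limits for other cell types: Egfr-0 astroglia had at least 3 Slc1a3 and 2 Slc4a4 UMIs and at most 1 of Dcx, and Egfr-0 neuroblasts at least 3 Dcx and 2 Dlx6os1 UMIs and 0 of Slc4a4. No test was made with 1 library per group. Clusters came from 2000 variable genes, 20 principal components, 15 neighbours and Leiden resolution 0.6, without mitochondrial, ribosomal protein, haemoglobin and main sex-linked genes. The 4 clusters with the most astroglial list RNA were called astroglia-like. Cluster 3 was set apart as the cluster with the most S phase list RNA.

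Genes were named as the 12 highest and 12 lowest ratios of MIP to control, and the 10 each way between groups, by the interval bound nearest to no difference, with at least 40 UMIs in the higher group. Mitochondrial, ribosomal protein, haemoglobin and main sex-linked genes were left out of these rankings. From each list the members with the largest ratios or most UMIs were added. Some genes that this rule names are left out of the text. Genes of the separate clusters, and others where so stated, were picked after their values were seen. Scrublet's automatic threshold marked 0 barcodes, so removal of the highest-scoring 0.8% per 1000 barcodes was an alternative only. Other alternatives were edgeR 4.0.16 TMM scaling, thinning to 2000 UMIs, other Egfr and count limits, and subsets of clusters. Gene positions are 1-based, from GENCODE on mm10. Ratios were tried on simulated Poisson counts without variation between nuclei, animals or libraries, which checks the calculation only. Python 3.11.15, NumPy 2.4.6, SciPy 1.17.1, pandas 2.3.3, Scanpy 1.11.5, igraph 0.11.9, leidenalg 0.10.2, Matplotlib 3.10.9 and R 4.3.3 were used.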

Additional observations from a re-analysis of the deposited data

Results flagged for a closer look

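3 gene lists had summed ratios of MIP to control on opposite sides of 0 in the astroglia-like clusters and in cluster 3, and none of these differences was tested. The S phase genes had a summed log2 ratio of -0.35 in the astroglia-like clusters and 0.25 in cluster 3. The neuroblast genes had -0.12 and 0.33. Nrxn3, a synaptic adhesion gene of that list, was at 1818 and 1550 CPM in the astroglia-like clusters and at 2487 and 4220 CPM in cluster 3. The higher sum of the list in cluster 3 therefore lay mostly in this gene. The cholesterol and fatty acid synthesis genes had 0.14 and -0.34. With 1 library per group, each of these values rests on a single library per side.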

How the results depend on the processing

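No paired analysis was possible because each group had 1 library, and no replicate could be left out for the same reason. The log2 ratio of the share of Egfr nuclei without mitotic transcripts, -0.45, became -0.18 with at least 2 Egfr UMIs, -0.69 with only barcodes of at least 2000 UMIs, -0.72 in the astroglia-like clusters and 0.25 in cluster 3. These last settings, and all other values within clusters, were added after seeing the data. The 1116 genes higher and 2010 lower in the MIP nuclei became 693 and 1090 with at least 60 UMIs and 2010 and 3459 with at least 5, since the number of genes measured changes, and 990 were lower in cluster 3 alone. Against Egfr nuclei with mitotic transcripts, the 407 higher became 640 without barcodes of high doublet score and 243 with at least 60 UMIs. The 535 lower became 234 with at least 60 UMIs and 316 after thinning. Against Egfr-0 astroglia, the 203 higher became 325, 114 and 123 without those barcodes, with at least 60 UMIs and after thinning. The 104 lower became 29 with at least 60 UMIs and 25 after thinning. Against neuroblasts, 1040 higher and 521 lower became 594 and 336 with at least 60 UMIs. Of the genes named over all nuclei, Reln (-0.39) and Ror1 (-0.17) changed sign in the astroglia-like clusters. Cluster 3 was run as a setting for shares and counts only, and of these genes with at least 20 UMIs there Lncpint was under 0 (-0.17). The 62 and 53 nuclei of cluster 3 were too shallow for most lists, with 6 of 27 glucocorticoid genes measured. Where not said otherwise, the cause was not tested.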
